A study of Ovis aries with 15 samples.

Results

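Solute carriers of the families that move mineral ions were measured in sheep mammary gland in late pregnancy and in lactation. The set holds every gene of the deposited table whose symbol belongs to the SLC4, SLC8, SLC9, SLC11, SLC12, SLC20, SLC24, SLC26, SLC30, SLC31, SLC34, SLC39, SLC40 or SLC41 families. Of 24691 features, 80 carried such a symbol, and 55 of these had at least 10 exon reads in at least 6 of the 15 libraries and were kept. The rule used no comparison between the states, but the late pregnancy libraries alone could meet it. SLC4A5 and SLC9A5, with 0 to 7 exon reads per lactation library, were kept through late pregnancy only, which favoured their later call as lower in lactation. RNA came from needle biopsies of mammary parenchyma of 2-year-old primiparous Romney ewes, sampled at day 135 ± 2.4 (SD) of gestation and again at day 15 ± 1.27 (SD) after lambing. It was sequenced as 9 pooled libraries of late pregnancy and 6 of lactation. All ewes shared the same pasture management and the labels group them by the feeding of their own dams in early gestation, which was ad libitum (HM), maintenance (MM) or sub-maintenance (LM), followed for every dam by maintenance feeding. Each dam group had 3 pools in late pregnancy and 2 in lactation. By the labels a pool joined RNA of 3 ewes in late pregnancy and of 2 in lactation, whereas the methods of the study give one number for both states, and this was left unresolved. The biopsies are whole tissue, and a lower level can stand for fewer cells of a type or for less RNA per cell, which cannot be told apart here.

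Milk carries calcium, phosphate and zinc at concentrations that the mammary epithelium must build up from blood, and it is low in sodium and chloride. Zinc enters the cytosol through SLC39 (ZIP) proteins and leaves it, to the outside or into vesicles, through SLC30 (ZnT) proteins. Phosphate enters with sodium through SLC20 and SLC34 proteins, and the SLC12, SLC4, SLC9 and SLC26 families move chloride, bicarbonate, protons and other ions that set the volume and pH of the cell. SLC30A2 and SLC30A4 are known for their role in milk zinc: defects of the first give zinc-poor milk in women, and a defect of the second is the cause of the lethal milk mouse.

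The late pregnancy libraries held 6471237 to 16898986 reads (median 13919007), and those of lactation held 9014506 to 24001031 (median 15075423). The milk protein genes took 13.7 to 23.4% of the late pregnancy reads and 71.3 to 75.8% of the lactation reads, and the kept carriers took 0.160 to 0.199% and 0.149 to 0.180%. Levels below are RPKM, the reads of a gene divided by its exon length and by library size, computed on library sizes scaled by the trimmed mean of M values (TMM), and are given as mean ± SD over libraries (n = 9 and n = 6). Changes are log2 values of lactation over late pregnancy with their SE, and a gene is said to have risen or fallen where its adjusted p in edgeR's quasi-likelihood test over all genes was under 0.05. One library, lactation HM pool 1, lay apart from the others on the second principal component of the genes that varied most between libraries.

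In lactation 3 of these carriers rose more than 30-fold: the phosphate carrier SLC34A2, the zinc importer SLC39A8 and the vesicular zinc transporter SLC30A2. Of the 54 carriers that passed the expression filter, 29 rose and 11 fell in lactation and 14 did not pass the test. Called carriers made up 74.1% of those tested, a share near the 68.4% of all 13345 genes. By direction, 53.7% of the carriers rose against 33.1% of all genes, and 20.4% fell against 35.2% of all genes. The median change was 0.37 for the carriers and -0.03 for all genes. The libraries of both states did not overlap for 26 of the 54 carriers (48.1%), against 40.2% of all genes. More than 2-fold changes were found in 9 carriers that rose and 6 that fell.

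These directions are relative to the scaling. With library size alone, which counts the milk protein reads in full, the median of all genes moved from -0.03 to -1.94, and 5 carriers were higher and 48 lower. The 5 that stayed higher were SLC34A2, SLC30A2, SLC39A8, SLC12A8 and SLC39A14. Of the 54 carriers, 36 lay above the median of all genes. A scaling moves all genes nearly alike, so this count does not depend on the scaling and is no check of it. Without lactation HM pool 1, 32 carriers were higher and 10 lower.

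**Figure D1:**
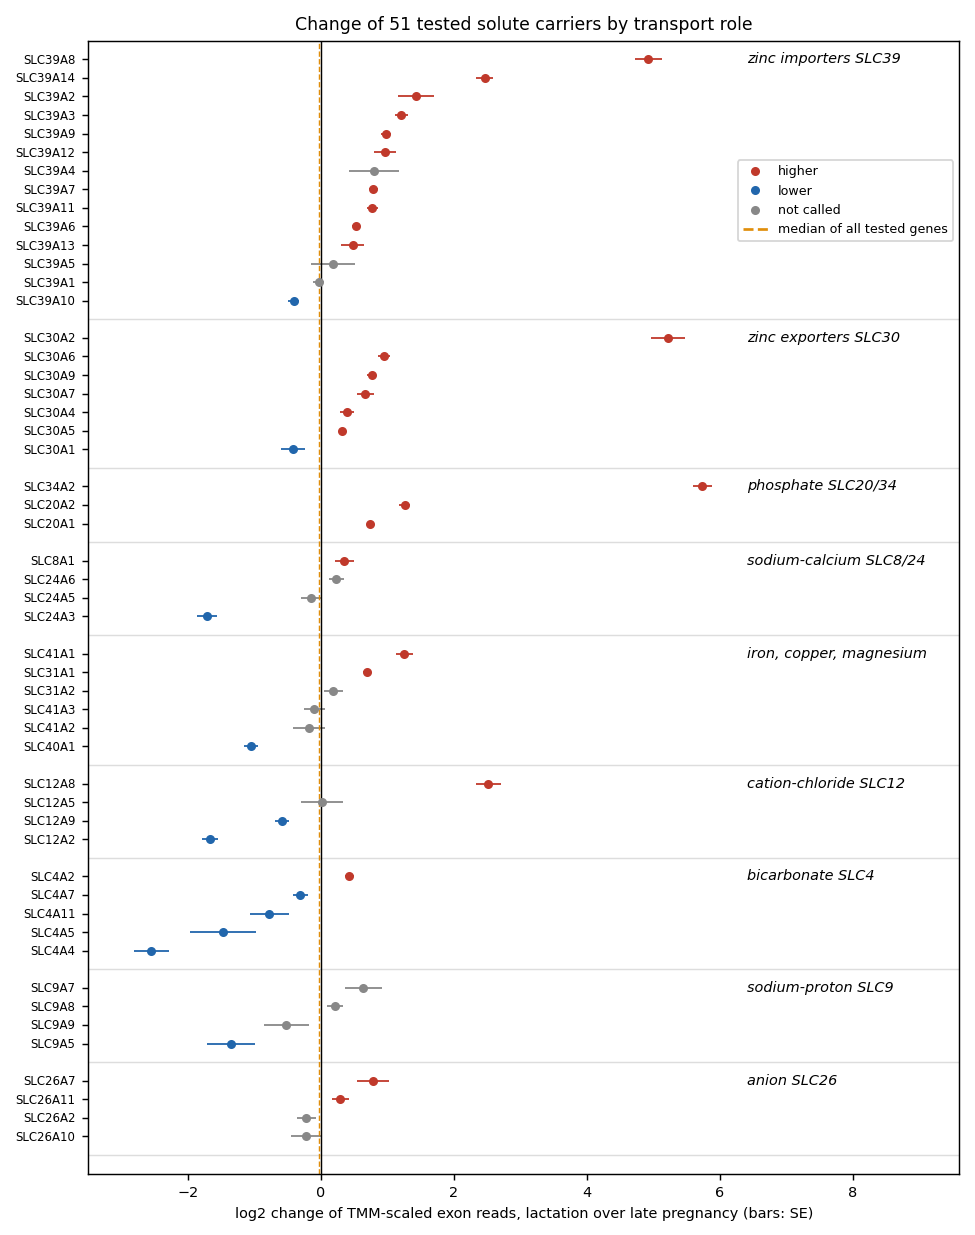
Log2 change of exon reads in lactation over late pregnancy (horizontal axis, points with SE) for 51 of the 54 tested carriers, grouped by transport role and coloured by call in edgeR's quasi-likelihood test; the dashed line is the median of all 13345 tested genes (-0.03). Most zinc carriers lie to the right of that line, 3 carriers lie beyond 4, and the lowest value is that of SLC4A4 (-2.55).

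The SLC39 zinc importers held the highest carrier level of lactation. Of the 14 members, all of them kept, 10 rose, 1 fell and 3 did not pass the test, with a median change of 0.79. With library size alone 2 were higher and 11 lower. Of the 14, 12 lay above the median of all genes. Their summed level rose from 150 ± 10.5 RPKM (134 to 164 in single libraries) to 749 ± 57.1 (655 to 822). SLC39A8 (ZIP8), a surface importer of zinc that also carries manganese and iron, accounted for most of this.

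SLC39A8 lies on chromosome 6 at 22554242 to 22636717. Its level was 27.6, 13.2 and 26.8 RPKM in the late pregnancy HM pools 1 to 3, 11.6, 10.2 and 14.6 in the MM pools, and 17.2, 12.1 and 12.3 in the LM pools. In lactation it was 496 and 541 RPKM in the HM pools, 412 and 474 in the MM pools, and 492 and 516 in the LM pools. Every lactation library lay far above every late pregnancy library, and late pregnancy HM pools 1 and 3 were the highest of their state. The mean went from 16.2 ± 6.54 to 489 ± 44.1 RPKM, a log2 change of 4.92 ± 0.20 (30.3-fold, adjusted p = 4.1e-14, edgeR). It ranked 8 by mean level among the kept carriers in late pregnancy and 1 in lactation. Its share of the summed SLC39 level was 6.36 to 16.8% (median 8.87%) in late pregnancy and 62.8 to 66.0% (median 65.7%) in lactation.

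SLC39A14 (ZIP14), the closest relative of SLC39A8 and likewise a carrier of zinc, iron and manganese, had the next largest rise of the family. It was at 9.35 to 17.1 RPKM in late pregnancy (median 11.6) and at 56.0 to 86.3 in lactation (median 69.2). The states did not overlap, and the log2 change was 2.46 ± 0.12 (5.50-fold, adjusted p = 8.5e-13). Only 77.6% of its exon reads were uniquely placed, and on unique reads alone the change was 2.43.

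SLC39A7 (ZIP7), which releases zinc from the endoplasmic reticulum and Golgi into the cytosol, was the carrier with the highest level of the whole set in late pregnancy. It rose from 41.5 to 59.0 RPKM (median 54.5) to 81.7 to 99.8 (median 91.8), with no overlap and a log2 change of 0.78 ± 0.07 (adjusted p = 4.5e-09). Because SLC39A8 rose so much more, the share of SLC39A7 in the summed SLC39 level went from a median of 35.0% to 12.6%. The other importers that rose, named here after their values were seen, were SLC39A2, SLC39A3, SLC39A9, SLC39A12, SLC39A11, SLC39A6 and SLC39A13, with log2 changes of 0.48 (SLC39A13) to 1.43 (SLC39A2). SLC39A2 was read from only 5 to 26 reads per library. The call of SLC39A13 was lost without lactation LM pool 1 (adjusted p = 0.12) or lactation MM pool 1 (adjusted p = 0.063).

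SLC39A10 (ZIP10), a surface zinc importer, was the member that fell, from 4.44 to 5.36 RPKM (median 4.88) to 2.67 to 4.29 (median 4.03). The states did not overlap, and the log2 change was -0.41 ± 0.09 (adjusted p = 0.00033). It did not pass on reads across exon junctions (-0.33, adjusted p = 0.091), within MM (-0.23, adjusted p = 0.11) or within HM (-0.26, adjusted p = 0.12), and was -0.81 within LM (adjusted p = 0.0012, edgeR). SLC39A1 (ZIP1), a widely expressed surface importer, was at 23.98 ± 1.98 and 23.6 ± 3.55 RPKM, with a log2 change of -0.04 ± 0.08 (adjusted p = 0.71). SLC39A4, the zinc importer of the gut, and SLC39A5 had means below 1 RPKM in both states and did not pass the test.

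Among the 10 SLC30 genes of the table, 7 were kept, of which 6 rose and 1 fell, with a median change of 0.67. With library size alone 1 was higher and 6 lower. Of the 7, 6 lay above the median of all genes. The summed level of the family went from 60.2 ± 5.51 RPKM to 152 ± 18.8.

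SLC30A2 (ZnT2), which loads zinc into secretory vesicles of the mammary epithelium, lies on chromosome 2 at 239920460 to 239934880. In late pregnancy it was at 2.35, 4.56 and 1.65 RPKM in the HM pools, 0.820, 2.55 and 2.23 in the MM pools, and 1.07, 0.860 and 1.63 in the LM pools. In lactation the HM pools were at 66.6 and 55.1, the MM pools at 46.1 and 63.6, and the LM pools at 80.5 and 94.6. Every lactation library was above 46 RPKM and every late pregnancy library below 5. The mean went from 1.97 ± 1.16 to 67.8 ± 17.5 RPKM (log2 change 5.22 ± 0.25, 37.2-fold, adjusted p = 4.6e-13). Among the kept carriers it moved from rank 36 to rank 5. Its share of the summed SLC30 level was 1.40 to 6.61% (median 2.96%) in late pregnancy and 35.1 to 53.7% (median 43.7%) in lactation.

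SLC30A4 (ZnT4), the lethal milk gene, was at 14.3 to 20.6 RPKM in late pregnancy (median 16.2) and at 18.9 to 30.05 in lactation (median 20.9). The ranges overlapped, and the log2 change of 0.39 ± 0.10 (adjusted p = 0.0018) was small beside that of SLC30A2. It held the highest mean level of the family in late pregnancy and was passed by SLC30A2 in lactation, where its share fell to a median of 14.2% from 27.1%. SLC30A6 (ZnT6), which with SLC30A5 brings zinc into the early secretory pathway, went from 4.36 to 6.11 RPKM (median 4.97) to 7.89 to 12.6 (median 9.72). Its states did not overlap, and the log2 change was 0.94 ± 0.09 (adjusted p = 2.7e-08). SLC30A5, SLC30A7 and SLC30A9, named after their values were seen, rose by log2 changes of 0.31, 0.67 and 0.77.

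SLC30A1 (ZnT1), the zinc exporter of the cell surface, was the member of this family that fell, from 1.62 to 2.54 RPKM (median 1.81) to 0.912 to 2.44 (median 1.35). The ranges overlapped. The gene had 34 to 101 exon reads per library in late pregnancy and 12 to 22 in lactation, and 0 reads across exon junctions in every library. Its log2 change of -0.42 ± 0.18 only just passed (adjusted p = 0.042), and the call was lost without any 1 of 8 libraries, with adjusted p of 0.051 to 0.17. These were late pregnancy HM pool 3, LM pool 2, MM pools 1 and 2, and lactation HM pool 2, LM pool 1 and MM pools 1 and 2.

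**Figure D2:**
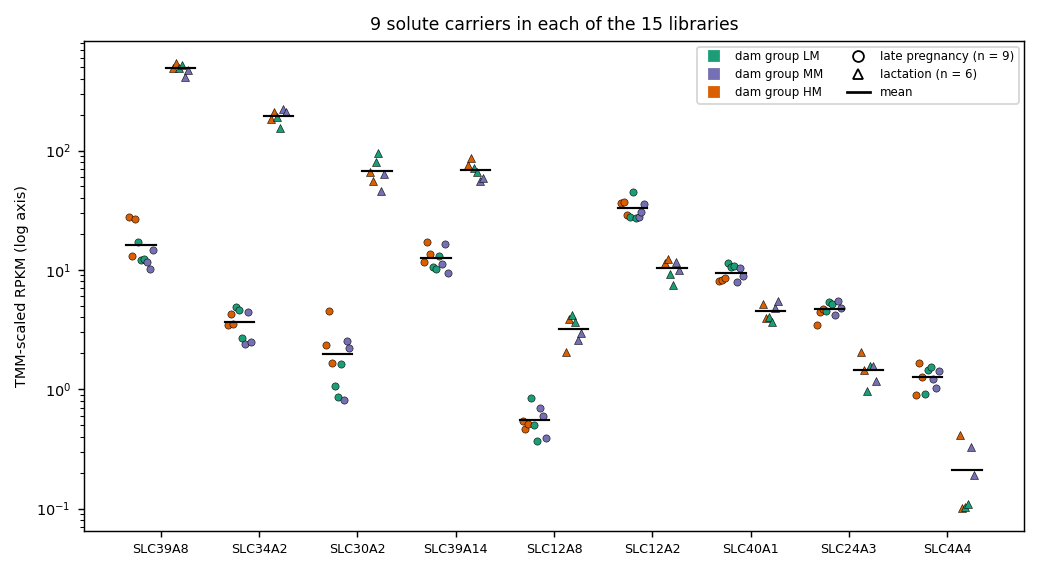
TMM-scaled RPKM on a log axis of 9 carriers in each library, with circles for the 9 late pregnancy and triangles for the 6 lactation libraries, colours for the dam groups and black bars for means. In all 9 genes the libraries of the states are apart, with SLC39A8, SLC34A2, SLC30A2, SLC39A14 and SLC12A8 higher in lactation and SLC12A2, SLC40A1, SLC24A3 and SLC4A4 lower.

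All 3 tested sodium-phosphate carriers rose, with a median change of 1.26, and their libraries did not overlap between the states. With library size alone 1 was higher and 2 lower. With SLC34A3 included, the summed level went from 17.1 ± 1.14 RPKM to 220 ± 23.3. SLC34A2 (NaPi-IIb), a carrier of apical epithelial membranes, lies on chromosome 6 at 45024908 to 45049814. It was at 3.46, 4.31 and 3.55 RPKM in the late pregnancy HM pools, 2.42, 4.46 and 2.51 in the MM pools, and 4.93, 4.62 and 2.67 in the LM pools. In lactation it was at 182 and 209 in the HM pools, 225 and 210 in the MM pools, and 192 and 155 in the LM pools. No library of one state came near those of the other. The mean went from 3.66 ± 0.97 to 195 ± 24.8 RPKM (log2 change 5.74 ± 0.15, 53.3-fold, adjusted p = 1.1e-16), the largest change of the 54 carriers. Its rank among the kept carriers moved from 27 to 2.

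The counting of SLC34A2 has a limit. An uncharacterised feature, LOC101105822, overlaps it over 4297 bases, and the library kit does not mark the strand, so reads of the overlap cannot be assigned to either with certainty. The reads of that feature moved the same way, from 5 to 31 per library to 1087 to 5679. Reads across annotated exon junctions of SLC34A2, which need a spliced transcript, went from 47 to 196 per library to 1101 to 3509, and their log2 change was 5.75.

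SLC20A1 (PiT1) and SLC20A2 (PiT2) are phosphate carriers of most cells. SLC20A1 rose from 10.1 to 11.3 RPKM (median 10.7) to 15.2 to 20.4 (median 17.8), with a log2 change of 0.74 ± 0.06 (adjusted p = 4.4e-10). It held the highest level of the phosphate carriers before lambing, with a median share of 61.7%, and 7.81% in lactation, where SLC34A2 held 89.1%. SLC20A2 rose from 2.13 to 2.85 RPKM (median 2.50) to 5.47 to 6.42 (median 6.06), with a log2 change of 1.26 ± 0.08 (adjusted p = 6.2e-11). SLC34A3, a carrier known from kidney, had 2 to 13 reads per library in late pregnancy and 6 to 12 in lactation. It did not pass the expression filter, and when the minimum of 10 reads in 6 libraries served as the filter its log2 change was 1.91 (adjusted p = 9.3e-06 over 13252 genes).

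**Figure D3:**
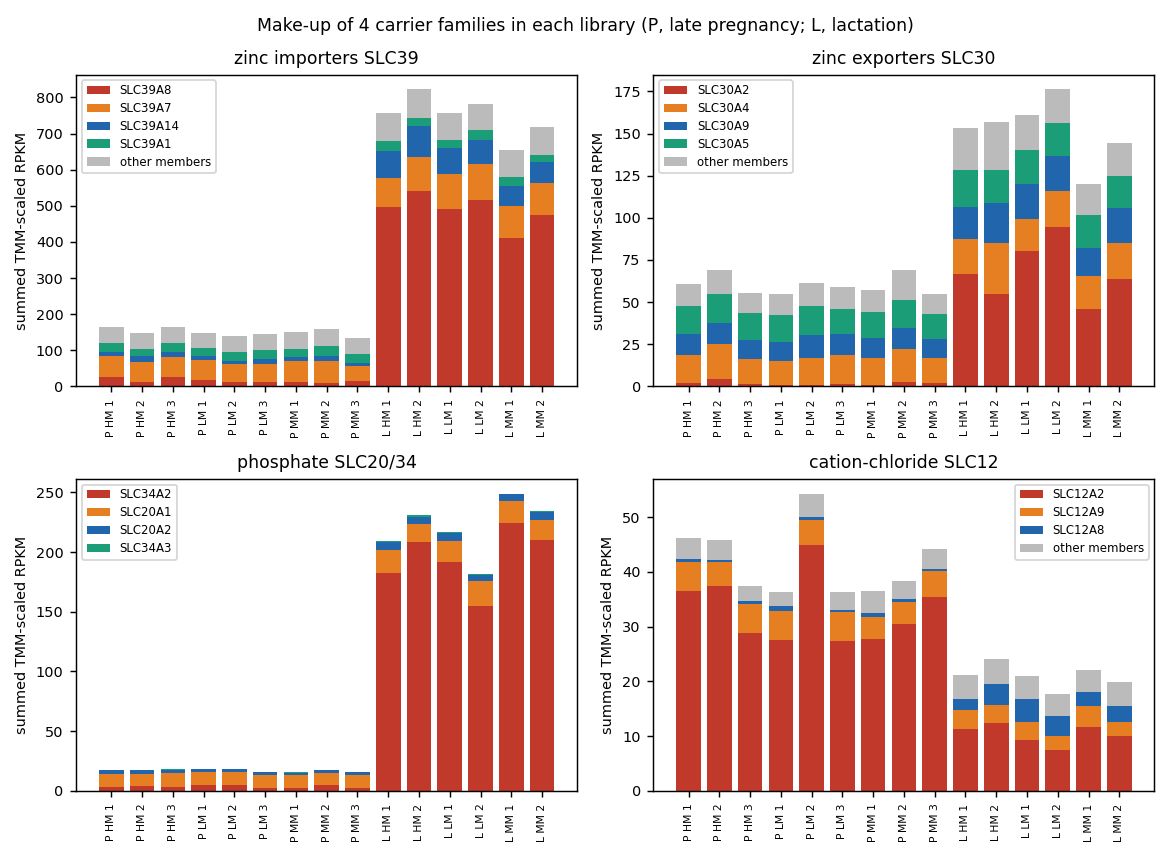
Summed TMM-scaled RPKM of 4 carrier families in each of the 15 libraries (bars), split by gene, with P for late pregnancy and L for lactation. SLC39A8 fills a median of 65.7% of the SLC39 sum in lactation and SLC34A2 89.1% of the phosphate sum, while SLC12A2 goes from a median of 79.1% to 50.8% of a smaller SLC12 sum.

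Of the 4 kept sodium-calcium exchangers, 1 rose, 1 fell and 2 did not pass the test, with a median of 0.04. SLC24A3 (NCKX3), which exports calcium in exchange for sodium and carries potassium with it, fell from 3.43 to 5.52 RPKM (median 4.72) to 0.964 to 2.04 (median 1.501). The states did not overlap, and the log2 change was -1.72 ± 0.15 (adjusted p = 3.7e-09). SLC8A1 (NCX1), the sodium-calcium exchanger best known from the heart, was at 0.637 to 1.21 RPKM (median 0.783) and 0.904 to 1.34 (median 0.993). These ranges overlapped, the log2 change was 0.35 ± 0.14 (adjusted p = 0.034), and with upper quartile scaling no exchanger was called higher. The call of SLC8A1 was lost without any 1 of 6 libraries (late pregnancy HM pools 1 and 3, LM pool 1, MM pool 1, lactation HM pool 2 and MM pool 1), with adjusted p of 0.051 to 0.15. Its reads across exon junctions gave -0.08 (adjusted p = 0.87).

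SLC24A5, the exchanger of pigment granules, had 4.51 ± 0.53 and 4.16 ± 1.38 RPKM and did not pass the test (log2 change -0.15 ± 0.15, adjusted p = 0.40). It had 73 to 238 exon reads per late pregnancy library but at most 1 read across an exon junction, and in lactation 25 to 78 exon reads and 0 such reads. SLC24A6, a mitochondrial exchanger, was at 1.87 ± 0.22 and 2.17 ± 0.33 RPKM (adjusted p = 0.075).

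Among 6 kept carriers of copper, magnesium and iron, 2 rose, 1 fell and 3 did not pass the test, with a median of 0.04. With library size alone all 6 were lower. SLC41A1, a magnesium exporter of the cell surface, rose from 14.1 to 28.3 RPKM (median 16.7) to 36.9 to 47.8 (median 43.3). Its states did not overlap, and the log2 change was 1.25 ± 0.12 (adjusted p = 2.5e-08). SLC31A1 (CTR1), the copper importer of the cell surface, rose from 26.5 to 35.5 RPKM (median 30.6) to 45.7 to 55.7 (median 50.3), again with no overlap (log2 change 0.69 ± 0.07, adjusted p = 1.2e-08).

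SLC31A2 (CTR2), a related copper protein of inner membranes, held the highest level of this group in late pregnancy, at 27.7 to 52.3 RPKM (median 42.0), and was at 31.6 to 57.3 in lactation (median 47.7). It did not pass the test (log2 change 0.18 ± 0.14, adjusted p = 0.25). SLC41A2 and SLC41A3, relatives of SLC41A1, were at 0.727 ± 0.20 and 2.02 ± 0.31 RPKM in late pregnancy and 0.627 ± 0.20 and 1.85 ± 0.38 in lactation. SLC40A1 (ferroportin), the iron exporter of cells and abundant in macrophages, fell from 7.90 to 11.4 RPKM (median 8.96) to 3.67 to 5.52 (median 4.42). No library of one state reached those of the other, and the log2 change was -1.06 ± 0.11 (2.08-fold lower, adjusted p = 4.5e-08). The 5 macrophage markers in the table summed to 105 to 138 CPM in late pregnancy and 55.4 to 78.5 in lactation, with 3 of 5 lower (C1QA, C1QB and CSF1R) and none at 0, and their part in the fall of SLC40A1 was not tested.

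The cation-chloride family was the one whose summed level fell most, from 41.7 ± 6.29 to 21.0 ± 2.16 RPKM, with no overlap. Of its 5 kept members 2 rose, 2 fell and 1 did not pass the test (median 0.02). SLC12A2 (NKCC1), which brings sodium, potassium and chloride into epithelial cells from the blood side, was at 36.6, 37.4 and 28.9 RPKM in the late pregnancy HM pools, 27.7, 30.4 and 35.4 in the MM pools, and 27.6, 45.0 and 27.4 in the LM pools. In lactation it was at 11.3 and 12.4 in the HM pools, 11.7 and 9.96 in the MM pools, and 9.29 and 7.42 in the LM pools. Every lactation library was below every late pregnancy library. The mean went from 32.9 ± 6.07 to 10.3 ± 1.83 RPKM (log2 change -1.67 ± 0.13, 3.18-fold lower, adjusted p = 4.0e-10), and the gene moved from rank 3 to rank 19 of the kept carriers.

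SLC12A8, a member of the same family with a less certain cargo, moved the other way. It rose from 0.372 to 0.843 RPKM (median 0.517) to 2.05 to 4.17 (median 3.29), with no overlap and a log2 change of 2.52 ± 0.19 (5.72-fold, adjusted p = 3.2e-10). SLC12A9, which has no firmly known cargo, fell from 4.08 to 5.30 RPKM to 2.57 to 3.82 without overlap (log2 change -0.59 ± 0.10, adjusted p = 3.9e-05). SLC12A5, the chloride exporter of neurons, was at 0.157 ± 0.03 and 0.156 ± 0.12 RPKM.

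Most kept members of the SLC4 family, which holds bicarbonate carriers, fell. Of 5 kept members 4 fell and 1 rose (median -0.78), and with library size alone all 5 were lower. SLC4A4 (NBCe1), which carries sodium with bicarbonate, fell from 0.903 to 1.67 RPKM (median 1.28) to 0.1003 to 0.418 (median 0.151). No libraries overlapped, and the log2 change was -2.55 ± 0.26 (5.87-fold lower, adjusted p = 4.0e-08) on 91 to 227 reads per library before and 3 to 20 after. SLC4A7 (NBCn1), a related sodium-bicarbonate carrier, was at 5.32 to 8.48 RPKM (median 6.13) and 4.87 to 6.68 (median 5.33), with overlap and a log2 change of -0.31 ± 0.11 (adjusted p = 0.017). SLC4A2 (AE2), which exchanges chloride for bicarbonate, was the member that rose, from 7.22 to 9.87 RPKM (median 8.89) to 10.5 to 12.7 (median 11.8). It did so without overlap, with a log2 change of 0.42 ± 0.07 (adjusted p = 9.0e-06). SLC4A5 and SLC4A11, named after their values were seen, fell by 1.47 and 0.78 on the log2 scale on at most 30 reads in any library. The call of SLC4A11 was lost without lactation HM pool 1 (adjusted p = 0.053, edgeR). SLC4A5 had 0 to 7 exon reads per lactation library and met the read minimum only in late pregnancy, and SLC4A11 had 0 to 10. The read minimum thus favoured both falls, and the family median is the value of SLC4A11. The summed level of the family did not separate the states (16.0 to 19.4 and 16.6 to 18.7 RPKM), since SLC4A2 carried a median of 52.6% of it in late pregnancy and 67.3% in lactation.

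Among the 6 kept sodium-proton exchangers of the SLC9 family 2 rose, 1 fell and 3 did not pass the test (median 0.38). SLC9A8 (NHE8), an exchanger of the Golgi, held the highest late pregnancy level of the family at 4.30 ± 0.33 RPKM and was at 5.05 ± 1.40 in lactation (log2 change 0.21 ± 0.12, adjusted p = 0.13). SLC9A5 fell by 1.35 on the log2 scale (adjusted p = 0.0026, edgeR) on at most 32 reads per library. It had 0 to 7 exon reads per lactation library and met the read minimum only in late pregnancy, which favoured a fall. SLC9A7 and SLC9A9, exchangers of inner membranes, were below 1 RPKM in every library and did not pass the test.

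The 4 kept SLC26 anion carriers included 2 that rose and 2 that did not pass the test (median 0.04), and none separated the states. SLC26A11 had the highest level, 2.48 to 3.85 RPKM (median 3.19) in late pregnancy and 2.83 to 4.61 (median 3.90) in lactation. Its log2 change of 0.29 ± 0.12 (adjusted p = 0.044) was lost without any 1 of 10 libraries, with adjusted p of 0.052 to 0.13. These were late pregnancy HM pool 3, LM pools 2 and 3 and MM pools 1 to 3, and lactation LM pools 1 and 2 and MM pools 1 and 2. On reads across exon junctions it was 0.28 (adjusted p = 0.079). SLC26A7 rose by 0.78 on the log2 scale on 6 to 24 reads per library, and its call was lost without lactation HM pool 2 (adjusted p = 0.058). SLC26A2, a sulfate carrier, was at 2.60 ± 0.40 and 2.26 ± 0.49 RPKM, and SLC26A10 at 1.01 ± 0.28 and 0.849 ± 0.21.

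Reads on introns come largely from transcripts not yet spliced and were not used to choose the carriers. Of the 46 carriers with enough intron reads, 19 rose and 10 fell (63.0% called), against 58.0% of all 10344 genes, with 29.0% of all genes higher and 29.0% lower. Their median change was 0.24, against -0.01 for all genes. Exon and intron reads were both called in the same direction in 25 of the 46 carriers (54.3%), against 44.5% of 9801 genes, and in opposite directions in 0 of 46, against 2.97% of genes. The 3 largest rises on exons were also the 3 largest on introns, with log2 changes of 5.36 ± 0.18 for SLC34A2, 5.36 ± 0.20 for SLC39A8 and 5.63 ± 0.36 for SLC30A2. Reads of LOC101105822, which overlaps SLC34A2, can enter the intron value of that gene and were not separated from it. SLC12A2 fell by 2.40 ± 0.17 on introns and SLC39A10 fell by 1.26 ± 0.12, values larger in size than those on exons.

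For other carriers the readouts gave unlike values. SLC4A4 fell by 2.55 on exons and by 0.80 ± 0.30 on introns. In the SLC30 family, all 6 members with enough intron reads rose on exons but only SLC30A2 and SLC30A5 did on introns. SLC30A7 and SLC30A9 fell just short on introns, at 0.26 ± 0.11 (adjusted p = 0.051, edgeR) and 0.25 ± 0.12 (adjusted p = 0.067, edgeR). SLC30A6 was at 0.09 ± 0.16 on introns (adjusted p = 0.64) and SLC30A4 at -0.27 ± 0.14 (adjusted p = 0.10). In the SLC39 family 7 of 11 rose and 2 fell on introns, with 1.57 ± 0.13 for SLC39A11 and 1.38 ± 0.27 for SLC39A6 beside 0.77 and 0.53 on exons. The difference between the readouts was not tested for single genes.

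**Figure D4:**
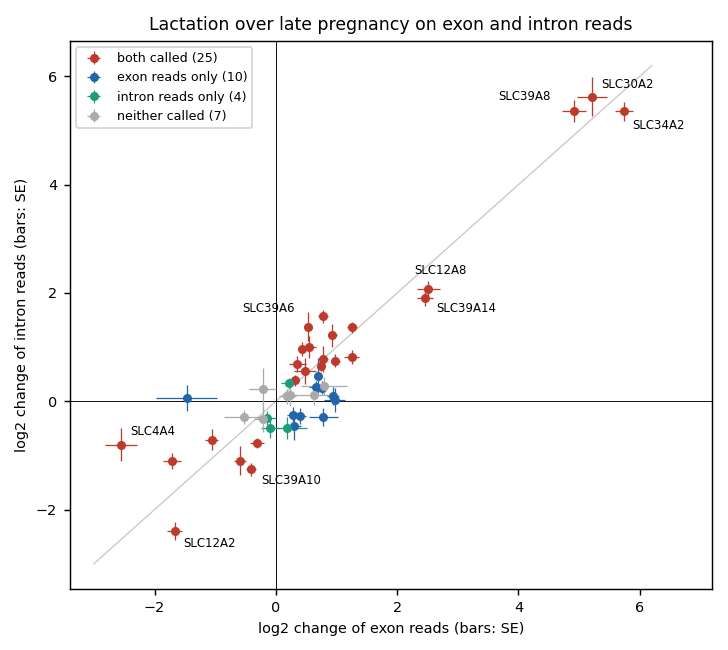
Log2 change, lactation over late pregnancy, on exon reads (horizontal) and on intron reads (vertical) for the 46 carriers tested on both, with SE bars, the grey line marking equal change and colours showing which readout was called. SLC34A2, SLC39A8 and SLC30A2 lie near the line at the upper right, SLC12A2 lies below it at the lower left, and SLC4A4 above it.

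The other 25 carriers of the table were below the read minimum, with at most 16 reads in any library. Among them were SLC12A1 and SLC12A3, the salt carriers of the kidney tubule (at most 2 and 9 reads), SLC34A1, the phosphate carrier of the kidney (at most 1), and SLC4A1, the anion exchanger of red cells (at most 12). SLC9A3, the exchanger of gut and kidney surfaces, had 0 reads in all 15 libraries. SLC11A1, a metal carrier of macrophage phagosomes, had at most 8 reads. The rest were SLC24A1, SLC24A2, SLC24A4, SLC26A3, SLC26A4, SLC26A5, SLC26A8, SLC26A9, SLC30A3, SLC30A8, SLC30A10, SLC4A3, SLC4A8, SLC4A9, SLC4A10, SLC8A2, SLC8A3, SLC9A2 and SLC9A4.

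Other genes of the same mineral pathways were read from a list of 43 genes, of which 40 were in the table, 32 were tested, 19 rose and 7 fell. Of all 13345 genes, 33.1% rose and 35.2% fell. The list was chosen with earlier results of these data known, and its smaller groups hold few genes each. Among the calcium pumps, ATP2C2, a pump of the secretory pathway, rose from 64.6 ± 11.4 to 745 ± 63.3 CPM (reads scaled to library size, log2 change 3.53, adjusted p = 6.1e-16). ATP2B2, the calcium pump of the apical membrane of milk-secreting cells, rose from 9.18 ± 3.04 to 68.4 ± 6.49 CPM (2.90), while ATP2B1, its widely expressed relative, fell from 72.3 ± 5.53 to 27.2 ± 3.34 (-1.40). Of 7 kinases and partners that regulate the SLC12 family, 3 rose and 2 fell. WNK4 rose from 12.8 ± 3.66 to 45.8 ± 7.31 CPM (1.85) and WNK3 from 0.121 ± 0.07 to 5.03 ± 0.97 (5.29). WNK1 had the highest CPM of the WNK kinases here, a measure not divided by transcript length, and went from 85.6 ± 6.55 to 72.0 ± 5.14 (-0.25).

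Of 6 magnesium genes tested 5 rose and 1 fell, including the CNNM4 magnesium exporter, from 3.18 ± 0.40 to 11.2 ± 1.31 CPM (1.81). Of 4 copper genes 3 rose, among them the copper pump ATP7B (1.35), and XPR1, the phosphate exporter, rose by 1.04. Of 4 scaffolds and cofactors of SLC9 and SLC34 proteins 2 rose and 1 fell. Of 3 carbonic anhydrases, which make the bicarbonate that SLC4 proteins carry, 1 rose and 2 fell, with CA2 falling from 8.66 ± 3.27 to 1.78 ± 0.80 CPM (-2.30). Of 3 tested zinc sensing and storage genes 1 rose, and the metallothionein MT2A was at 1.94 ± 0.53 and 1.82 ± 0.77 CPM (adjusted p = 0.96).

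Marker genes of cell types, in the same TMM-scaled CPM, moved with the state. Luminal epithelial markers summed to 1645 to 2033 CPM in late pregnancy and 2401 to 2675 in lactation, with 4 of 7 higher (KRT18, KRT19, EPCAM and ELF5) and KRT7 lower. Fibroblast markers went from 353 to 627 CPM to 225 to 372 (3 of 4 lower), endothelial markers from 156 to 209 to 91.9 to 132 (4 of 4 lower), and T cell markers from 36.6 to 59.5 to 12.1 to 18.9 (5 of 5 lower). Myoepithelial markers summed to 527 to 566 and 415 to 599 CPM, with 1 of 5 higher and 2 lower. Adipocyte markers summed to 222 to 427 and 301 to 392.4 CPM with 0 of 3 called. Most of that sum was FABP4, at 321.5 ± 65.3 and 332.7 ± 37.9 CPM, so it says little of the other adipocyte markers. ADIPOQ was at 10.1 ± 5.05 and 7.53 ± 3.27 CPM, and PLIN1, LEP and CIDEC were lower still. Neutrophil and red cell markers never exceeded 2.64 CPM. The part of cell make-up in the changes of the carriers was not tested.

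The feeding of the dams gave no called carrier. In late pregnancy, over 3 pools per dam group, 0 of 55 carriers and 0 of 13747 genes (0.0%) passed edgeR's quasi-likelihood test, with 5 carriers and 571 genes at an unadjusted p under 0.05 and a smallest adjusted p of 0.995 among carriers. DESeq2's likelihood ratio test called 20 genes and 0 carriers. For the interaction of dam group and state, 0 of 54 carriers and 0 of 13345 genes (0.0%) passed, with 6 carriers and 876 genes at an unadjusted p under 0.05 and a smallest adjusted p of 0.712 among carriers. DESeq2 called 19 genes and 0 carriers for it. Among the 5 carriers of the first test were SLC40A1, SLC39A8, SLC39A12 and SLC30A2, and the 6 of the second were SLC39A10, SLC40A1, SLC30A2, SLC30A6, SLC26A11 and SLC12A5.

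Within single dam groups, at 3 against 2 libraries, 22 carriers rose and 5 fell in HM, 22 and 5 in MM, and 24 and 8 in LM (edgeR). The shares of all genes called in these smaller fits are not given here, so the counts show nothing particular to the carriers. SLC34A2 changed by 5.71, 6.12 and 5.42 on the log2 scale in the HM, MM and LM groups, SLC39A8 by 4.52, 5.20 and 5.19, and SLC30A2 by 4.47, 4.92 and 6.22. SLC12A2 changed by -1.53, -1.52 and -1.98 and SLC40A1 by -0.87, -0.82 and -1.48. Each of these 5 genes was called in each of the 3 groups.

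**Figure D5:**
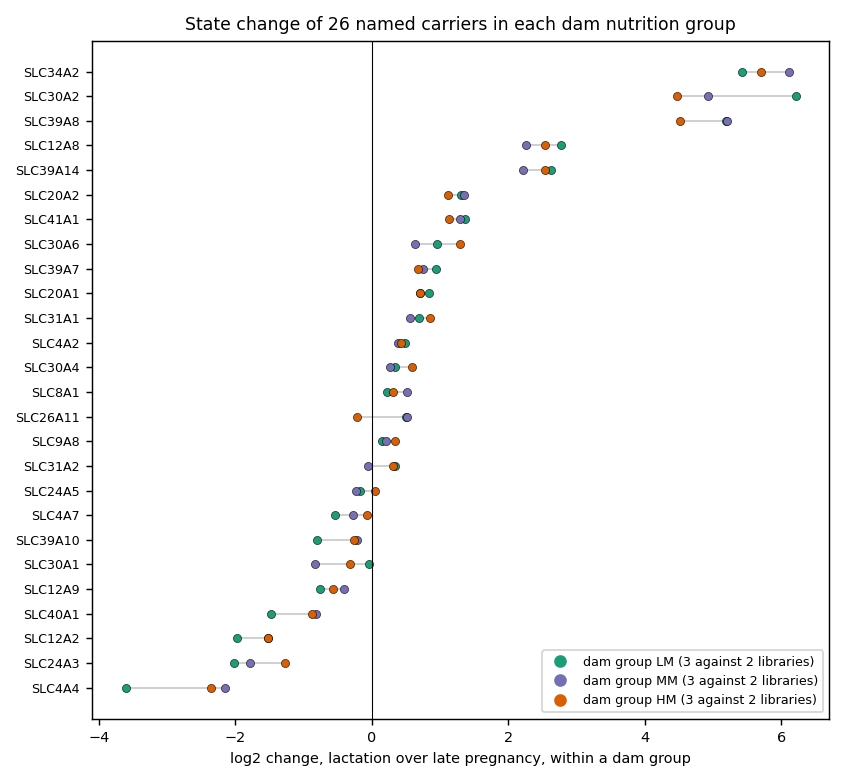
Log2 change, lactation over late pregnancy, of the 26 named carriers within each dam nutrition group (points, 3 against 2 libraries per group), with genes ordered by their change over all 15 libraries. The 3 groups lie on the same side of 0 for all but SLC26A11, SLC31A2 and SLC24A5.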

How the data were processed

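Paired reads from unstranded TruSeq libraries were mapped and counted by the authors in CLC Genomics Workbench. The submitters' notes name the genome build Oar_v3.1 while the methods name another release, so the coordinates given are those of the deposited table, counted from 1. The deposited counts are unnormalized reads on exons, on whole genes and across exon junctions, in all or uniquely placed. The RPKM they deposited were computed by the authors from exon reads and exon length, and recomputed values differed by at most 3.48e-07 of their size. The authors also deposited RPKM after quantile normalization across the 15 libraries. The deposited table holds 24 columns of the authors' own comparisons (fold changes and p-values), which were not used. Features with no annotated transcript (5583) take reads on the whole gene.

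Counts of all features were filtered with filterByExpr, scaled by TMM and tested with edgeR 4.0.16 (R 4.3.3) by quasi-likelihood F-test, all 15 libraries, without covariates, and p-values were adjusted by Benjamini-Hochberg over 13345 genes. SE is the log2 change divided by the square root of F. Intron reads are whole-gene less exon reads and were tested likewise. Scripts were tested on simulated data. Alternatives used DESeq2 1.42.0, limma 3.58.1 on the deposited quantile-normalized RPKM, other scalings, filters, reads and libraries. Python 3.11.15 (numpy 2.4.6, pandas 2.3.3, scipy 1.17.1) did the rest.

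Carriers, gene lists and markers were chosen with earlier results of these data known. Named in each role group were the 2 largest rises and falls among called carriers of at least 1 RPKM, the highest carrier in each state, and SLC30A2, SLC30A4, SLC34A2, SLC12A2, SLC20A1 and SLC40A1. Some carriers enter the counts but are not reported here by name. Libraries are pools of separate ewes; ewes were sampled in both states, and the labels do not tie the pools across states. Reads carry no molecular identifiers, so errors rest on the spread over libraries, which may be partly technical.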

Additional observations from a re-analysis of the deposited data

Results flagged for a closer look

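Single libraries stood apart from the others of their state by Dixon's criterion in 3 of the 52 sets of libraries looked at (26 named carriers in 2 states), where chance gives about 1 in 20. SLC30A2 in late pregnancy was highest in HM pool 2, at 4.56 RPKM, with the next library at 2.55. SLC30A4 in lactation was highest in HM pool 2, at 30.05 RPKM, with the next at 21.45. SLC30A1 in late pregnancy was highest in MM pool 2, at 2.54 RPKM, with the next at 2.04. Without those libraries SLC30A2 and SLC30A4 were called as before, and the call of SLC30A1 was lost (adjusted p = 0.071, edgeR).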

How the results depend on the processing

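Counts of carriers called in lactation stayed within 25 to 31 higher and 10 to 12 lower under upper quartile scaling, DESeq2, limma on quantile-normalized RPKM with a pseudocount of 0.1 or 1, other filters, unique reads, and dam group or lane number as covariate, against 29 and 11. Reads across exon junctions, tried after the data were seen, gave 23 and 8. Leaving out 1 library at a time gave 27 to 32 higher and 10 to 11 lower, and on intron reads 18 to 21 higher and 6 to 11 lower, against 19 and 10. The value of 6 came without lactation MM pool 2. With the scaling factors of the exon reads in place of those of the intron reads, 21 carriers were higher and 7 lower on introns. Smaller sets of libraries called fewer falls: 5 within HM, 5 within MM and 5 within lane 7, where fewer libraries enter. The lane number is that of the column name, each library having been run on more than 1 lane. Within lanes 7 and 8, 23 and 25 carriers were higher. All LM libraries carry lane number 8 and lane 7 holds only HM and MM libraries, so dam group and lane number cannot be fully told apart. Dam group gave 0 carriers under every alternative run.

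Scaling by library size alone moved the counts to 5 higher and 48 lower, and on intron reads (tried after the data were seen) to 9 and 22. It turned the log2 change of SLC26A11 to -1.62, SLC4A2 to -1.48, SLC41A1 to -0.65, SLC31A1 to -1.21, SLC31A2 to -1.72, SLC20A2 to -0.65, SLC20A1 to -1.16, SLC8A1 to -1.56, SLC9A8 to -1.69, SLC30A6 to -0.96, SLC30A4 to -1.52 and SLC39A7 to -1.12, the construction of that scaling giving the milk protein reads full weight. Other reversals were near 0, and their cause was not tested: SLC31A2 was -0.058 and -0.057 with limma at pseudocounts of 0.1 and 1 and -0.0565 within MM, SLC24A5 0.042 within HM and 0.12 within lane 7, SLC8A1 -0.077 on junction reads, and SLC26A11 -0.22 within HM. Of the leave-one-out values of the named carriers, 365 of 390 stayed on their side of the threshold.

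Pool numbers occur in both states for 12 libraries. The deviations of same-numbered pools correlated by -0.03 to 0.09, and 5 of the 12 libraries correlated best with their own number. These values do not settle whether same-numbered pools hold the same ewes. With dam group and pool number as a replicate block, 26 carriers were higher and 8 lower, against 25 and 10 in the same 12 libraries without the block. For the dam group tests the replicate block left 0 carriers called. Depth limits the carriers of a few reads per library, such as SLC39A2, SLC4A5, SLC4A11 and SLC9A5.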
